A study of Rattus norvegicus with 6 samples.

Results

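The genes described here encode the proteins of the cytosolic ribosome. They were found by symbol in an expression table of 17066 genes, as every symbol that starts with Rpl or Rps and a digit, together with Rplp0, Rplp1, Rplp2 and Rpsa, and without the Rps6k kinases. The symbol rule gave 86 rows. Of these, 46 were core genes of the large subunit and 31 were core genes of the small subunit. Another 6 were like forms, a name used here for paralogues with a similar symbol (Rpl22l1, Rpl36al, Rpl39l, Rpl3l, Rps27l and Rps4y2). There were 2 pseudogene rows, Rpl37a-ps1 and Rps4x-ps1, and 1 row, Rps19bp1, which encodes a protein that binds Rps19 and is not a structural part of the ribosome.

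RNA-seq had been performed in primary hippocampal neurons of Sprague-Dawley rats, taken from embryos of embryonic day 18. Lentivirus was added to the cultures on day 5 or 6 in vitro, and they were harvested on day 14. The virus carried EGFP alone in the EGFP control, CCNY-WT-EGFP for overexpression of cyclin Y (CCNY) or CCNY-shRNA-EGFP for its knockdown, with 2 libraries for each of the 3 conditions. All groups therefore carried virus and EGFP, the control virus carried no other shRNA, and the study describes the cultures as enriched for neurons with glia repressed. Nothing in the labels says that the libraries came from separate cultures, so the p-values below measure only the spread between these libraries, which may be technical. The question was which transcripts differ when CCNY is raised or lowered in neurons that no longer divide.

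The ribosome joins amino acids into protein as it reads mRNA. The small subunit holds the mRNA and the large subunit holds the site where the peptide bond is made and the tunnel through which the new chain leaves. Each core protein is built into the ribosome in a fixed number of copies, mostly a single copy, and their genes are usually expressed together at high levels. In many animals their mRNAs begin with a C followed by a run of pyrimidines, the terminal oligopyrimidine (TOP) motif, through which mTOR signalling controls their translation. In neurons ribosomes and ribosomal protein mRNAs are also found in dendrites and axons. These genes have many processed pseudogenes, copies of the mRNA in the genome, with which sequencing reads can be shared.

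The annotated starts of the genes on which the results turn are shown first. Each sequence runs 5′ to 3′ from 40 bases before to 20 bases from the annotated RefSeq start in the build GRCr8, which is not the build of the expression table. Capitals mark the C at the start and the pyrimidines that follow it without a break. The genes are Rplp1, the most abundant, Rpl31, the most different between the CCNY-shRNA libraries among members with a mean FPKM of at least 5, and Rpl37a and Rpl36, which were listed near or at 0. Rps2 and Rpl27a, which departed most from the median of the abundant members, complete the set.
Rplp1, chr8:71290853-71290912, minus strand: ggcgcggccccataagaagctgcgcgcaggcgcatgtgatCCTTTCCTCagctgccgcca
Rpl31, chr9:49143071-49143130, plus strand: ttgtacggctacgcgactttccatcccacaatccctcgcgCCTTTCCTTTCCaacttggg
Rpl37a, chr9:81748051-81748110, plus strand: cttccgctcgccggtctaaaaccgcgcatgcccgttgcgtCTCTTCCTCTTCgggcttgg
Rpl36, chr9:1533740-1533799, plus strand: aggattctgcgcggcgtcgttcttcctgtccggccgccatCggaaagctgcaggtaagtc
Rps2, chr10:14251808-14251867, plus strand: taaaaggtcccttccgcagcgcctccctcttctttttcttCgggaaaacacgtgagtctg
Rpl27a, chr1:172974533-172974592, plus strand: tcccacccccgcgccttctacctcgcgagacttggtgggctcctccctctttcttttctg

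The starts of Rplp1, Rpl31 and Rpl37a are TOP-like in these letters, and those of Rpl36, Rps2 and Rpl27a are not. In Rps2 a run of pyrimidines before the annotated start ends with the C at that start. In Rpl27a the base just before the annotated start is a C, and a long run of pyrimidines follows it. A start was counted as TOP-like where a C was followed by at least 4 pyrimidines. Such a start was present in 24 of the 62 core genes with an entry in the RefSeq promoter table (38.7%), against 2.52% of all 21851 protein-coding promoters. The first base was a C in 54.8% of the core genes and in 24.4% of all. The longest run was 12 pyrimidines. Within the 300-base windows (250 bases before and 50 after the start), searched on both strands, TCTCGCGA was found in 12 core genes (19.4%) against 1.19% of all promoters. CTTCCGG was found in 20 core genes (32.3% against 10.7%) and AAGATGGC in 5 (8.06% against 3.67%). These are matches of letters at annotated starts and are not measurements of transcription or binding.

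Before the results for these genes, the libraries were compared. The targeted gene followed the labels, since Ccny had an FPKM of 43.1 and 42.3 with EGFP, of 108 and 109 with CCNY-WT and of 5.98 and 6.19 with CCNY-shRNA. FPKM relates the fragments of a gene to the length of its transcript and to all mapped fragments of the library. No read counts were given, so the depth of a library is unknown. The depth relative to EGFP replicate 1, estimated from the steps in low FPKM values, was between 0.818 in CCNY-shRNA replicate 1 and 1.32 in CCNY-WT replicate 1. Neuronal markers summed to FPKM values of 3226 to 3347 in all 6 libraries, with 9 of 9 detected. The 5 astrocyte markers in the table summed to 295 in CCNY-shRNA replicate 1 and to between 358 and 381 in the others. Markers of the oligodendrocyte lineage summed to 37.2 to 47.6 with Sox10 at 0, vascular and meningeal markers to 62.7 to 74.7 with Cldn5 at 0, and mitotic genes to 4.14 to 6.06. Microglial markers stayed at or under 0.249 in sum, with Aif1 and Cx3cr1 at 0. Bc1, a neuronal non-coding RNA, was listed with an FPKM only in CCNY-WT replicate 1, and was therefore left out of the sums below.

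CCNY-shRNA replicate 2 stood apart from the other libraries in the ribosomal protein genes. Of the 78 rows with a mean FPKM of at least 30 (44 large subunit genes, 31 small subunit genes, Rpl22l1, Rpl36al and Rpl37a-ps1), 74 had their highest value there (94.9%). This library was the highest in 21.2% of all tested genes and in 40.25% of 1051 other genes with a mean FPKM of at least 100. CCNY-shRNA replicate 1 gave the lowest value of 37 of the 78 rows. The medians of the tested ribosomal protein rows in CCNY-shRNA, and their counts by p, are therefore given with and without each of its libraries. Other tests in CCNY-shRNA used all 6 libraries unless stated.

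The ribosomal protein genes were among the most abundant transcripts of these neurons. Across the 78 rows the EGFP mean had a median FPKM of 428, with quartiles of 276 and 619, while the median of all 10188 tested genes was 17.0. The lowest of the 78, Rpl28, lay above 81.4% of the tested genes, and 18 members were among the 100 highest genes. In EGFP replicate 1 the median FPKM was 427 over the large subunit genes and 482 over the small subunit genes. In EGFP replicate 2 these medians were 404 and 482.

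The levels were not equal across proteins of the same particle. Rplp1, a stalk protein that helps recruit translation factors, was the highest, with 2086 and 2111 in the EGFP libraries (mean 2098 ± 17.7, SD, n = 2). It was followed by Rpl41, a very small basic protein, at 1906 ± 17.8 and by Rps29, a zinc-binding protein of the small subunit, at 1685 ± 72.8. Next came Rpl21 (1310 ± 7.5), Rpl38 (1235 ± 9.78), Rps24 (1062 ± 10.03) and Rps21 (1003 ± 20.2). The order of these members was the same in both EGFP libraries. Further down, Rpl37 (875 ± 34.1) and Rpl39 (862 ± 29.6), a protein that lines the exit tunnel, overlapped and did not differ beyond their spread. The other stalk proteins Rplp0 and Rplp2 were lower than Rplp1, at 543 and 580 and at 667 and 676 with EGFP.

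In all, 7 members exceeded an FPKM of 1000 and 7 of the 78 stayed under 150. The latter included Rpl36a, Rpl22l1, Rpl11, Rpl15, Rpl32 and Rpl28. The highest and the lowest of the 78 differed 35.5-fold, and the 10 most abundant made up 32.1% of the summed FPKM of the members. Rpl5 and Rpl11, which bind the same ribosomal RNA and together can hold back the p53 regulator Mdm2, had FPKM values of 245 and 244 and of 110 and 116 with EGFP. Rps6, the small subunit protein phosphorylated downstream of mTOR, had 215 and 214. RefSeq lists 902 pseudogene entries named for the members, at least 1 for each of the 77 core genes and a median of 11, so each level could include or lack reads shared with such copies.

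**Figure D1:**
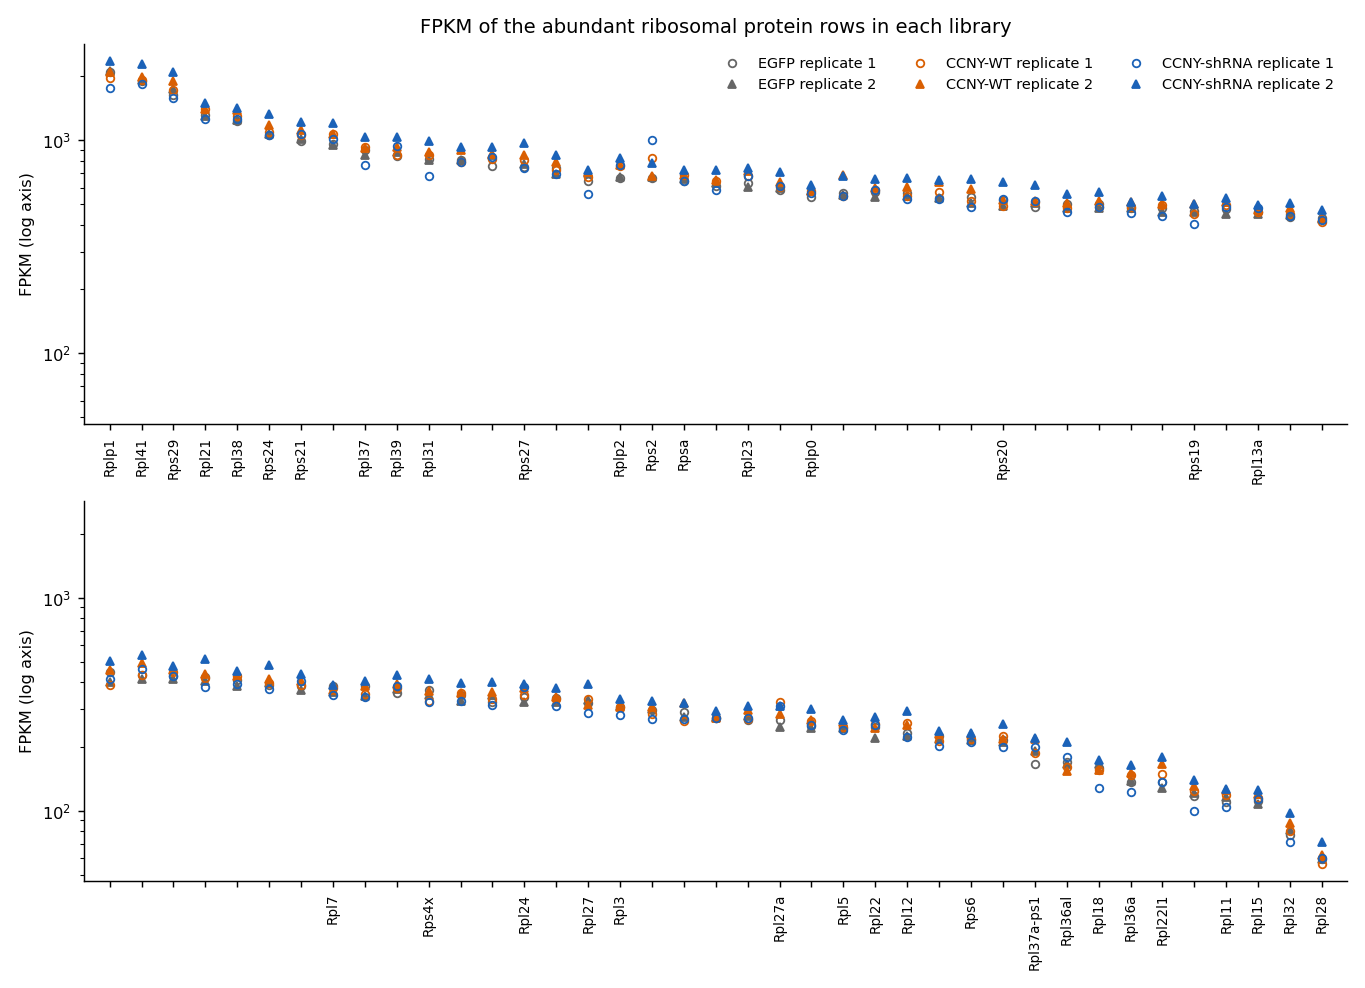
FPKM (log axis) of the 78 abundant ribosomal protein rows in each of the 6 libraries, ordered by the EGFP mean over both panels, with genes named in the text labelled. Circles are replicate 1 and triangles are replicate 2 of EGFP (grey), CCNY-WT (orange) and CCNY-shRNA (blue). The rows run from Rplp1 near 2098 to Rpl28 near 59.1, and the filled blue triangle lies highest in 74 of them.

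Some rows were listed at or near 0 in these cells. Rpl36, which encodes a protein of the large subunit, was listed at 0 in all 6 libraries. So was Rps27l, a like form of Rps27, while Rps27 itself was at 749 and 776 with EGFP. Since Rpl36 is a part of every cytosolic ribosome, a listed 0 is reported here as a value of the table and not as absence of the transcript. RefSeq lists Rpl36 as a protein-coding gene and names 11 pseudogene entries for it.

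Rpl37a was listed at 24.5 in EGFP replicate 1 and between 0.00540 and 0.0101 in the other 5 libraries. The pseudogene row Rpl37a-ps1 had 165 in EGFP replicate 1 and 191 in EGFP replicate 2. It had 186 and 217 with CCNY-WT and 199 and 220 with CCNY-shRNA. The only library in which Rpl37a was high was thus the one in which Rpl37a-ps1 was lowest. The sum of both rows was 190 and 191 with EGFP, 186 and 217 with CCNY-WT and 199 and 220 with CCNY-shRNA, so the EGFP libraries differed little in the sum. Rpl37a encodes a zinc-binding protein of the large subunit. Whether these rows share reads was not tested, and how the authors treated reads with several matches is not given in the sources used here, so the values of both rows are reported as uncertain.

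The like forms fell into an abundant and a scarce set. Rpl22l1 was expressed at 54.9% and 58.4% of Rpl22 with EGFP, 58.2% and 67.4% with CCNY-WT and 54.1% and 64.6% with CCNY-shRNA, and the groups overlapped. Rpl36al exceeded Rpl36a in every library, at 124% and 121% with EGFP, 110% and 102% with CCNY-WT and 146% and 128% with CCNY-shRNA. For this ratio the 3 groups did not overlap, which was seen after the values were examined and was not tested.

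The scarce like forms are known mainly from other tissues. Rpl3l, a form of striated muscle, stayed between 0.146 and 0.380, or at most 0.114% of Rpl3. Rpl39l, a form best known from testis, had 2.68 and 3.43 with EGFP, 2.05 and 1.15 with CCNY-WT and 1.97 and 5.09 with CCNY-shRNA, at most 0.493% of Rpl39. Rps4y2 stayed between 0.242 and 0.978, and Rps4x-ps1 between 0 and 0.347, against 324 to 416 for Rps4x. In total 5 rows never reached an FPKM of 1 (Rpl36, Rps27l, Rpl3l, Rps4x-ps1 and Rps4y2).

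**Figure D2:**
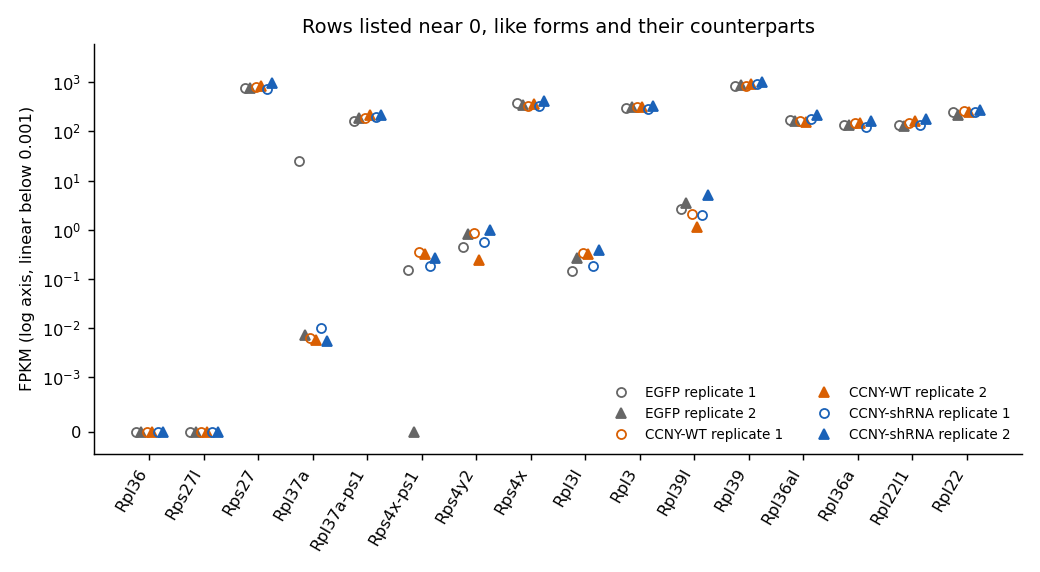
FPKM in each library (log axis, linear below 0.001) of the rows listed near 0 and of the like forms beside their core genes. Rpl36 and Rps27l sit at 0 in all libraries, Rpl37a is at 24.5 in EGFP replicate 1 only, and Rpl36al and Rpl22l1 lie in the range of Rpl36a and Rpl22.

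The comparisons used log2 FPKM with values under 1 set to 1, and a gene was tested where at least 2 libraries had an FPKM of 1 or more. Of the 86 rows, 80 were tested, and all of these were above 1 in every library. Rpl36, Rpl37a, Rps27l, Rpl3l, Rps4x-ps1 and Rps4y2 were not tested. The test was that of limma, with Benjamini-Hochberg adjustment over all 10188 genes and a threshold of 0.05. CCNY-WT and CCNY-shRNA were each compared with the same EGFP libraries, so these 2 comparisons are not independent of each other. In bulk RNA a change of level per cell and a change in the kinds of cells present cannot be told apart.

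In CCNY-WT, 0 of the 80 tested ribosomal protein rows passed the adjusted threshold, against 0.00982% of all tested genes, which was Ccny alone. The smallest adjusted p among them was 0.717 (Rpl27a). The median log2 change was 0.07, against 0.0041 over all tested genes, and the median standard error of a member was 0.09. At an unadjusted p under 0.05, 3 rows were higher (3.75%, Rpl23, Rpl27a and Rplp2), with 3.83% of all genes higher. With either of the CCNY-shRNA libraries left out of the fit, 12 rows were higher, against 4.88% of all genes, so how far the count lay from the background depended on the fit. In the fit of all 6 libraries no row was lower, against 3.00% of all genes.

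The groups were still separate in many of the ribosomal protein rows. Both CCNY-WT libraries lay above both EGFP libraries in 42 of 80 rows (52.5%), against 20.3% of all tested genes. They lay below in 3 rows (3.75%, Rpl18, Rpl36al and Rpl39l), against 19.2%. The 42 rows comprised 21 large and 20 small subunit genes and Rpl22l1. The median log2 change was 0.06 in the large and 0.08 in the small subunit genes. Under quantile normalization the median over the tested rows was 0.04. Of other genes with a mean FPKM of at least 100, 54.0% were above the EGFP mean in CCNY-WT replicate 1 and 58.7% in replicate 2. Among the 78 abundant members these were 54 and 72 rows. Subunits of other large complexes had medians close to those of the members in CCNY-WT, as given below. With 2 libraries per group an exact permutation test of a single value cannot give a p under 0.333.

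The largest positive differences with separate groups in CCNY-WT were those of Rpl22l1, Rpl27a and Rpl23. Rpl22l1 had 136 and 128 with EGFP and 148 and 166 with CCNY-WT (a log2 change of 0.25 ± 0.12 SE, adjusted p = 0.743 by limma). Rpl27a had 265 and 248 with EGFP and 324 and 285 with CCNY-WT (a log2 change of 0.24 ± 0.07 SE). Rpl23, a protein of the large subunit, had 629 and 604 with EGFP and 682 and 721 with CCNY-WT (a log2 change of 0.19 ± 0.07 SE, adjusted p = 0.725 by limma). In these genes the lowest CCNY-WT library was above the highest EGFP library, and none passed the adjusted threshold. Rpl36al lay lower in CCNY-WT, at 161 and 153 against 170 and 166 (log2 change -0.10). Rpl18 was also lower, at 156 in both CCNY-WT libraries against 159 and 166 (log2 change -0.06), less than its standard error of 0.12. Rpl39l had the largest difference of any tested member, at the low values given above (a log2 change of -0.98 ± 0.45 SE, adjusted p = 0.740 by limma).

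In CCNY-shRNA, again 0 of 80 rows passed the adjusted threshold, against 0.746% of all tested genes. The smallest adjusted p was 0.117 (Rpl27a). The median log2 change relative to EGFP was 0.10, against 0 over all genes. At an unadjusted p under 0.05, 12 rows were higher (15.0%), against 9.20% of all genes, and 0 were lower, against 9.36%. Under quantile normalization the median was 0.06, with 10 rows higher and 0 lower, against 9.22% and 9.45% of all genes. Both CCNY-shRNA libraries lay above both EGFP libraries in 25 rows (31.2%, 15 large and 7 small subunit genes, Rpl22l1, Rpl36al and Rpl37a-ps1), against 23.9%. They lay below both in 0 rows, against 24.5%.

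The median difference from EGFP followed a single library, though some rows were higher in both. The median of the 78 abundant rows relative to the EGFP mean, on the log2 scale, was -0.03 in CCNY-shRNA replicate 1 (quartiles -0.10 and 0.06) and 0.23 in replicate 2 (quartiles 0.18 and 0.28). The latter is a level 17.5% above EGFP. In replicate 2 all 78 rows were above the EGFP mean, from 0.05 in Rpl7 to 0.43 in Rpl22l1. In replicate 1 only 29 of 78 were above it. Of 1051 other genes with a mean FPKM of at least 100, 61.4% were above the EGFP mean in replicate 2 and 50.1% in replicate 1, and their medians were 0.05 and 0.0007.

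Without CCNY-shRNA replicate 1 the median log2 change of the tested rows was 0.23, 61 of 80 rows were higher at an unadjusted p under 0.05 (10.8% of all genes) and 2 passed the adjusted threshold. Among these was Rpl12 (a log2 change of 0.37, adjusted p = 0.0446 by limma), which was named after its values were seen. Without CCNY-shRNA replicate 2 the median was -0.03, with 4 rows higher and 10 lower (7.39% and 8.69% of all genes) and none past the adjusted threshold. The direction of the median change in CCNY-shRNA thus depended on which library was kept. In these fits the lone CCNY-shRNA library was assumed to vary like the libraries of the other groups.

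**Figure D3:**
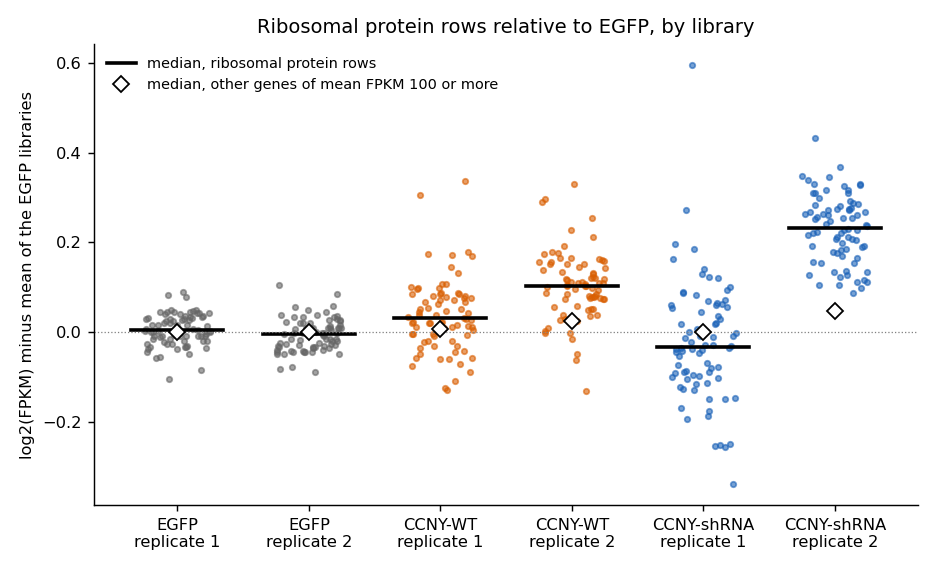
log2 FPKM minus the mean of the EGFP libraries for the 78 abundant ribosomal protein rows (points) in each library, with their median (bar) and the median of 1051 other genes of mean FPKM 100 or more (diamond). The bar is at 0.03 and 0.10 in the CCNY-WT libraries, -0.03 in CCNY-shRNA replicate 1 and 0.23 in CCNY-shRNA replicate 2, where the diamond is at 0.05.

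Replicates of the other groups were closer to each other. The median log2 difference of replicate 2 minus replicate 1 over the 78 rows was -0.0074 with EGFP, 0.07 with CCNY-WT and 0.25 with CCNY-shRNA. Replicate 2 was the higher one in 32, 63 and 77 of the 78 rows. Among all 3490 tested genes with a mean FPKM of at least 30, replicate 2 was higher in 48.2%, 52.5% and 54.2%. Replicate numbers carry no order, and the labels do not say what replicates with the same number share.

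As a share of the summed FPKM of all genes except Bc1, the members made up 7.44% and 7.43% with EGFP, 7.58% and 7.86% with CCNY-WT and 7.34% and 8.40% with CCNY-shRNA. The means were 7.43% ± 0.00636, 7.72% ± 0.196 and 7.87% ± 0.747 (SD, n = 2 each). The CCNY-shRNA libraries lay on both sides of all the others. The relative depth of these libraries was 0.818 in replicate 1 and 1.15 in replicate 2. With CCNY-WT it was 1.32 in replicate 1 and 0.933 in replicate 2, where the member medians were 0.03 and 0.10. In EGFP replicate 2 the relative depth was 1.09 and the member median -0.0037. The part of depth in these values was not tested.

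Among members with a mean FPKM of at least 5, the genes with the largest difference between the CCNY-shRNA libraries included Rpl31, Rpl32 and Rpl27. Rpl31, which lies near the mouth of the exit tunnel, had 815 and 810 with EGFP, 851 and 884 with CCNY-WT and 683 and 988 with CCNY-shRNA. In each of these genes the CCNY-shRNA libraries included both the lowest and the highest value of the 6. Rpl32 was at 71.2 and 97.9, and Rpl27 at 288 and 394, in CCNY-shRNA. Rps19bp1 differed by 0.50 on the log2 scale between the CCNY-WT libraries, at 20.4 and 28.7, and was lower in replicate 2 of CCNY-shRNA (18.04) than in replicate 1 (22.4).

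Among the 78 abundant rows, Rps2 departed most from the others. This protein lies near the entrance of the mRNA channel of the small subunit. Its FPKM was 664 and 672 with EGFP, 825 and 681 with CCNY-WT and 1009 and 781 with CCNY-shRNA. It was highest in CCNY-shRNA replicate 1, the library in which 37 other members were lowest, and there it stood 0.63 above the median log2 of the 78 rows. In CCNY-WT replicate 1 it stood 0.28 above that median. Relative to EGFP its log2 difference was 0.17 with CCNY-WT and 0.41 ± 0.13 (SE) with CCNY-shRNA (adjusted p = 0.159 by limma), the largest among the members in CCNY-shRNA. Without CCNY-shRNA replicate 1 this difference was 0.23 and without replicate 2 it was 0.60. RefSeq names 36 pseudogene entries for Rps2, the most of any member, and their part in these values was not tested.

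Rpl27a and Rplp2 lay above both EGFP libraries in all 4 libraries that carried CCNY-WT or CCNY-shRNA, and neither passed the adjusted threshold. Rpl27a had 310 in both CCNY-shRNA libraries (a log2 change of 0.27 ± 0.07 SE, adjusted p = 0.117 by limma), beside the CCNY-WT values given above. Its difference was 0.27 without either of the CCNY-shRNA libraries. Relative to the median of the 78 rows it stood 0.31 higher in CCNY-WT replicate 1 and in CCNY-shRNA replicate 1. Rplp2, the partner of Rplp1 in the stalk, had 667 and 676 with EGFP, 758 and 766 with CCNY-WT and 763 and 826 with CCNY-shRNA. Its log2 change was 0.18 with CCNY-WT and 0.24 with CCNY-shRNA (limma adjusted p = 0.725 and 0.120). Rplp1 itself had 1972 and 2096 with CCNY-WT and 1763 and 2352 with CCNY-shRNA, so its groups overlapped with EGFP. Rplp2 was named after its values were seen.

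Other members also lay above EGFP or below the member median in CCNY-shRNA. Rpl22l1 was at 137 and 178 (a log2 change of 0.24 ± 0.12 SE, adjusted p = 0.310 by limma). Without CCNY-shRNA replicate 2 its difference was 0.05, and without replicate 1 it was 0.43. Rpl24, which takes part in a bridge between the subunits, had 341 and 325 with EGFP and 382 and 393 with CCNY-shRNA, and it stood 0.23 above the member median in replicate 1. Rpl18 stood farthest below that median in the same library, by -0.31, at 128 against 159 and 166 with EGFP. The SD of the 78 log2 differences from EGFP was 0.13 in CCNY-shRNA replicate 1 and 0.08 in each of the CCNY-WT libraries and in CCNY-shRNA replicate 2.

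**Figure D4:**
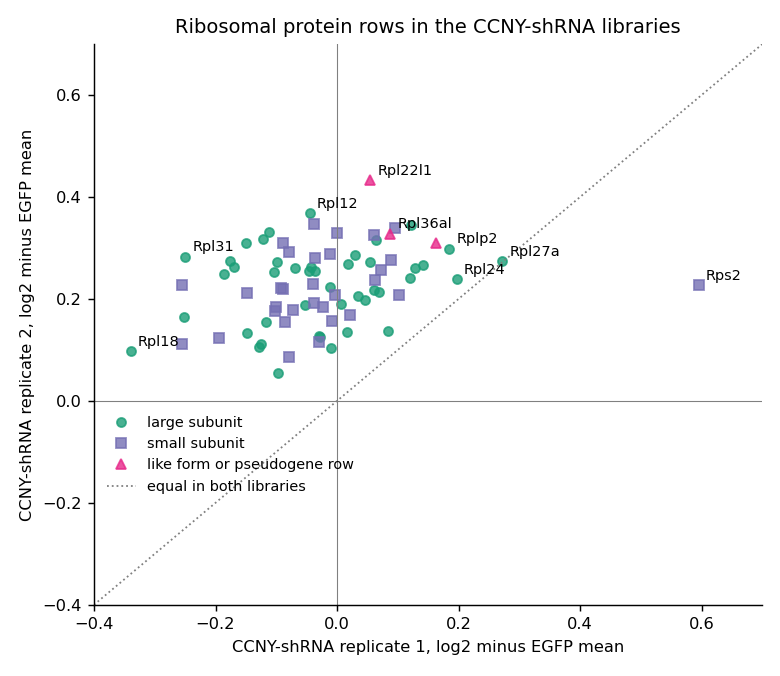
log2 FPKM minus the EGFP mean of each abundant row in CCNY-shRNA replicate 1 (horizontal) and replicate 2 (vertical), for large subunit genes (green circles), small subunit genes (purple squares) and like forms or pseudogene rows (pink triangles). All but Rps2, which is at 0.60 in replicate 1, lie above the dotted line of equal values, Rpl27a by 0.0016 only.

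Compared directly with CCNY-WT, 0 of 80 rows passed the adjusted threshold in CCNY-shRNA, against 0.216% of all tested genes. The smallest adjusted p was 0.225 (Rpl36al), and the median log2 change was 0.03 (0.001 over all genes). At an unadjusted p under 0.05, 2 rows were higher (2.5%, Rpl36al and Rpl39l), against 5.05% of all genes, and 0 were lower, against 7.12%. Both CCNY-shRNA libraries lay above both CCNY-WT libraries in 6 rows (7.5%, among them Rpl13a, Rpl24, Rpl36al, Rpl39 and Rps20), against 20.3%, and below in 0 rows, against 21.9%. Without CCNY-shRNA replicate 1 the median was 0.15 with 42 rows higher and 0 lower (6.68% and 7.30% of all genes). Without replicate 2 it was -0.09 with 2 rows higher and 21 lower (4.44% and 7.85% of all genes).

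Among members with a mean FPKM of at least 5 and separate groups, Rpl36al showed the largest difference between these conditions, at 178 and 211 with CCNY-shRNA against 161 and 153 with CCNY-WT (a log2 change of 0.30 ± 0.08 SE, adjusted p = 0.225 by limma). Its near-identical partner Rpl36a had 147 and 150 with CCNY-WT and 122 and 165 with CCNY-shRNA, so its groups overlapped, and reads could have been divided between these genes. The difference of Rpl36al was 0.42 without CCNY-shRNA replicate 1 and 0.18 without replicate 2. Rps20 was at 494 and 527 with CCNY-WT and at 531 and 638 with CCNY-shRNA (log2 change 0.19). Rpl39 was at 850 and 930 with CCNY-WT and at 942 and 1032 with CCNY-shRNA (log2 change 0.15). Without CCNY-shRNA replicate 2 these were 0.06 and 0.08. The scarce Rpl39l differed more (a log2 change of 1.04 ± 0.45 SE, adjusted p = 0.409 by limma), and its groups overlapped.

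The core genes with and without a TOP-like start had similar medians in these libraries. In CCNY-shRNA replicate 2 the median log2 difference from EGFP was 0.25 in 23 abundant genes with such a start and 0.21 in 37 without one. In CCNY-shRNA replicate 1 both medians were -0.04, and in CCNY-WT replicate 2 both were 0.10. The median FPKM in EGFP was 526 with and 424 without a TOP-like start. The set without one included Rpl27a, whose pyrimidine run follows a C just before the annotated start. The difference between these sets was not tested.

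Ribosomal proteins whose symbols fall outside the rule were measured as well. Fau encodes a ribosomal protein fused to a ubiquitin-like protein. Fau had 477 and 463 with EGFP, 483 and 517 with CCNY-WT and 460 and 552 with CCNY-shRNA. Gnb2l1, the kinase scaffold on the small subunit also called Rack1, had 212 and 192, 191 and 192, and 177 and 218 in the same order. Both were lowest in CCNY-shRNA replicate 1 and highest in CCNY-shRNA replicate 2, and neither passed the adjusted threshold in any comparison.

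Other genes of the translation pathway were taken as lists, and 0 of their genes passed the adjusted threshold in any comparison. Of 59 tested ribosome biogenesis genes, which process ribosomal RNA and assemble the subunits, 4 were higher and 0 lower in CCNY-shRNA at an unadjusted p under 0.05, where 9.20% of all tested genes were higher and 9.36% lower. Their median was 0.06 in CCNY-shRNA replicate 2 and 32.2% were highest there. Imp3, a part of the machinery that processes the small subunit, was at 19.98 and 18.3 with EGFP and 24.1 and 24.99 with CCNY-shRNA (a log2 change of 0.36, adjusted p = 0.0901 by limma). Nop16 was at 50.8 and 48.2 with EGFP and 56.7 and 56.6 with CCNY-shRNA (log2 change 0.19).

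Of 41 initiation and elongation factors, 5 were higher and 3 lower in CCNY-shRNA at that p, and 51.2% were highest in CCNY-shRNA replicate 2, where the median was 0.07. Eif3i, a subunit of the initiation factor that binds the small subunit, was at 13.8 and 16.1 with EGFP and 19.7 and 20.6 with CCNY-shRNA (a log2 change of 0.44, adjusted p = 0.120 by limma). Of 24 tested regulators of translation, 2 were higher and 5 lower, and only 8.33% were highest in CCNY-shRNA replicate 2. Fmr1, an RNA-binding protein that represses translation at synapses, was at 21.3 and 22.8 with EGFP and 17.9 and 18.1 with CCNY-shRNA (a log2 change of -0.29, adjusted p = 0.148 by limma). Mycn, a transcription factor known to drive ribosome production, was at 9.12 and 8.17 with EGFP and 5.82 and 6.83 with CCNY-shRNA (a log2 change of -0.45, adjusted p = 0.150 by limma). With CCNY-WT, 1 biogenesis gene was higher and 2 lower at an unadjusted p under 0.05, as were 2 and 0 factors and 2 and 0 regulators. The shares of all tested genes with CCNY-WT were 3.83% higher and 3.00% lower. Between CCNY-shRNA and CCNY-WT the counts of these lists were 3 and 1, 1 and 1, and 2 and 5. In that comparison 5.05% of all tested genes were higher and 7.12% lower.

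Subunits of other large complexes, chosen after the data were seen, were set beside the ribosome. In CCNY-shRNA replicate 2 the median was 0.19 in 67 mitochondrial ribosomal proteins, 0.19 in 78 subunits of the respiratory chain and ATP synthase and 0.27 in 38 proteasome subunits, beside 0.23 in the cytosolic ribosomal proteins. In CCNY-shRNA replicate 1 these medians were 0.08, 0.0046, 0.15 and -0.03. The cytosolic ribosomal proteins thus had the widest step between the CCNY-shRNA libraries of these 4 lists, and the proteasome subunits had medians above 0 in both. In CCNY-WT the median log2 change from EGFP was 0.06 in the mitochondrial ribosomal proteins, 0.05 in the respiratory chain subunits and 0.06 in the proteasome subunits. It was 0.07 in the tested cytosolic ribosomal protein rows, so a CCNY-WT median of this size was not particular to them. At an unadjusted p under 0.05, 23 proteasome subunits were higher and 1 lower in CCNY-shRNA, against 17 and 1 mitochondrial ribosomal proteins and 13 and 1 respiratory chain subunits, with 9.20% of all tested genes higher and 9.36% lower. Psmb1, a subunit of the proteasome core, was at 257 and 254 with EGFP and 303 and 307 with CCNY-shRNA (a log2 change of 0.25, adjusted p = 0.0712 by limma). CCNY-shRNA replicate 2 was highest in 49.3% of the mitochondrial ribosomal proteins, 73.1% of the respiratory chain subunits and 78.9% of the proteasome subunits. It was highest in 94.9% of the abundant cytosolic ribosomal protein rows and in 21.2% of all tested genes. What these lists share with the ribosomal protein genes in CCNY-shRNA replicate 2 was not tested.

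**Figure D5:**
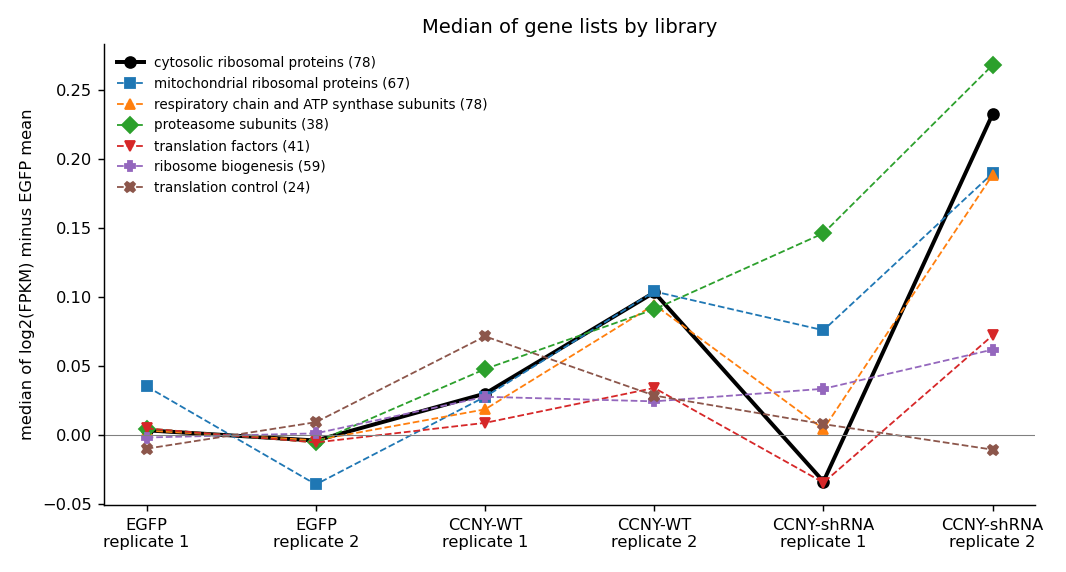
Median log2 FPKM minus the EGFP mean in each library for 7 gene lists, with the number of genes in brackets. The thick black line of the cytosolic ribosomal proteins is near 0 with EGFP, at -0.03 in CCNY-shRNA replicate 1 and at 0.23 in replicate 2, while proteasome subunits are at 0.15 and 0.27, and the lines only join points of the same list.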

How the data were processed

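Processed RNA-seq data of 6 rat libraries were used. Per the labels and the study's methods, the authors prepared libraries with the TruSeq RNA kit, sequenced 150-bp paired-end reads, mapped them with TopHat 2 to the rn4 build and derived FPKM with Cufflinks, and the deposited table holds 1 FPKM value per gene and library and no counts. The submitters' processing notes name Bowtie2 2.1.0, SAMtools 0.1.19, Cufflinks 2.2.1 and R 3.1.0. The annotation and the handling of reads with several matches are not given in the sources used here. FPKM is per length, so levels were compared between genes, but reads shared with copies affect it.

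FPKM was floored to 1 and log2-transformed, so changes of genes near 1 are understated. Genes that reached an FPKM of 1 in at least 2 libraries were fitted in limma 3.58.1 (R 4.3.3) over all 6 libraries with a mean-variance trend, and p-values were adjusted over all tested genes. No covariate was used. The scripts were tested on simulated data.

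The members and lists were chosen with earlier results of these data known, and the mitochondrial ribosomal, respiratory chain and proteasome lists were added after seeing the data. The rule for named members took rows under 1 in any library, the 10 highest in EGFP, members past the adjusted threshold, and, among members with a mean FPKM of at least 5, the 3 largest rises and falls without overlap in each comparison and the 5 with the largest replicate difference. Other members are named for their role or because they belong to a small count, after their values were seen. Some genes that the rule or the lists take are not reported here. From each other list the genes of smallest p were named. All 86 symbols were matched to RefSeq (84 by symbol, 2 by synonym), and start sequences are from RefSeq, GRCr8. Alternatives changed the offset, filter, scaling, trend, replicate block and each library.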

Additional observations from a re-analysis of the deposited data

How the results depend on the processing

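Among members with a mean FPKM of at least 5, the 11 differences named by the rule kept their sign and stayed outside the adjusted threshold in all 165 values under the planned and added alternatives. Since these were chosen for groups that did not overlap, leaving out a library or changing the offset, filter, trend or block could not change a sign. Only the changes of scaling could have done so. The count of ribosomal protein rows past the adjusted threshold stayed at 0 except without CCNY-shRNA replicate 1 (range 0 to 2 over the omitted libraries in CCNY-shRNA against EGFP) and with the members' median set equal in every library, a scaling chosen after seeing the data, which called 1 row between CCNY-shRNA and CCNY-WT (Rpl39l, log2 change 1.01). The median change in CCNY-shRNA ranged from -0.0334 to 0.23 against EGFP and from -0.0948 to 0.15 against CCNY-WT as each library was left out. The rows at an unadjusted p under 0.05 numbered 3 in CCNY-WT, 12 in CCNY-shRNA and 2 between them. With each library left out they ranged from 1 to 13, from 4 to 61 and from 1 to 42. The 13 were 12 higher and 1 lower (4.88% and 3.60% of all genes without CCNY-shRNA replicate 1), and the 61 and the 42 were all higher (10.8% and 6.68% of all genes). Without the trend they numbered 1, 4 and 1, all higher, against 3.57%, 7.83% and 4.12% of all genes higher. With no filter, 5 were higher in CCNY-shRNA against EGFP and 1 against CCNY-WT (5.13% and 3.29% of all genes). With log2(FPKM + 1), 1 was higher in CCNY-shRNA against CCNY-WT (5.05% of all genes). With the members' median set equal, 1 was lower in CCNY-WT (2.27% of all genes) and 1 was higher in CCNY-shRNA (1.49%). Over all genes, the 1 call in CCNY-WT became 3 with log2(FPKM + 1), 3 with a mean FPKM filter and 10 with the members' median set equal. The 76 calls in CCNY-shRNA became 2 with no filter, 1 without the trend, 179 with the members' median set equal and 1 to 86 as libraries were left out. The 22 calls between CCNY-shRNA and CCNY-WT became 2, 1, 76 and 1 to 22 in the same order. Setting the members' median equal also changed the split of all genes at an unadjusted p under 0.05, from 9.20% higher and 9.36% lower to 1.49% and 10.2% in CCNY-shRNA, from 3.83% and 3.00% to 1.01% and 2.27% with CCNY-WT, and from 5.05% and 7.12% to 1.33% and 4.69% between them. The replicate numbers were not taken as pairs, since the correlations of replicate deviations between groups were 0.05, 0.04 and 0.05. With the replicate number as a block, 5 ribosomal protein rows were higher at an unadjusted p under 0.05 with CCNY-WT, against 4.0% of all genes. In that fit 39 genes in all were called in CCNY-shRNA, and no member passed the adjusted threshold. With Bc1 included in the sum, the share of members in CCNY-WT was 7.15%. Under a limit of 0.1 in place of 1, 2 rows were near 0. The causes of these shifts were not tested. Depth is unknown, and 2 libraries per group limit what could be called.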
